A study of Mus musculus with 14 samples.

Results

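The measurement described here is a difference between differences. In cultured mouse fibroblasts that carry the naked mole rat (NMR) version of the telomere protein TRF1 in place of the mouse protein, the response to low oxygen was taken in the double mutant, and the response to low oxygen in the GLAD mutant was subtracted from it. This quantity, called the interaction below, is positive where hypoxia raised a gene more, or lowered it less, in double than in GLAD cells. It was computed for every gene expressed at 1 CPM (the reads counted for a gene, scaled to a fixed library total) or more in at least 2 libraries, which kept 16157 of the 52636 genes of the deposited table. The levels given below are CPM after TMM scaling, a correction for library composition by factors of 0.965 to 1.038, and log2 values were taken after adding 0.5 CPM, which understates the changes of low genes.

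All libraries came from tMEF cells, which are transformed mouse embryonic fibroblasts, and each group had 2 libraries, named A and B. The double mutant carries the substitutions Glu69Lys, Val70Ala and Ala75Thr together with Ala105Thr, and the GLAD mutant carries Glu69Lys, Val70Ala and Ala75Thr without Ala105Thr. The groups used here were double in hypoxia (1% oxygen), double in normoxia (atmospheric oxygen), GLAD in hypoxia and GLAD in normoxia, 8 of the 14 libraries of the series. The mutant with Ala105Thr alone (TIN), in hypoxia and normoxia, and the unmutated NMR protein (wild type), in normoxia, entered the same fit and its estimate of the spread. The wild type libraries are labelled as NMR TRF1, but their names carry the word Mouse, so which TRF1 they hold is uncertain. The labels do not state the time in low oxygen, whether each mutant is a single line, or whether A and B are separate cultures, so the p-values rest on library to library spread that could be purely technical.

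TRF1 binds the double-stranded repeats of telomeres as a subunit of shelterin, the complex that caps chromosome ends, and it helps replication forks to pass through telomeric repeats. In low oxygen, hypoxia-inducible factors (HIF) are no longer degraded and switch on glucose uptake, glycolysis, angiogenic signals and other genes that carry a hypoxia response element. The transcription factor p53, which is activated by DNA damage and other stresses, drives a separate set of genes for cell cycle arrest, DNA repair and cell death, while amino acid shortage and misfolded proteins act on transcription through ATF4 in the integrated stress response.

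The TRF1 gene itself was measured first. Terf1 had 96.6 and 91.5 CPM in double hypoxia, 128 and 136 CPM in double normoxia, 93.6 and 87.04 CPM in GLAD hypoxia and 148 and 149 CPM in GLAD normoxia. Its level was lower in hypoxia than in normoxia in both mutants, with log2 changes of -0.49 in double and -0.71 in GLAD, and the interaction was 0.23 ± 0.12 (SE; adjusted p = 0.22, limma). Reads of mouse Terf1 and of the introduced NMR coding sequence cannot be told apart by gene, and the mutations cannot be read from these values. Estimated from the smallest steps of the deposited values, the 14 libraries differ little in depth, as 1 read is worth 0.0665 to 0.0839 CPM. Libraries A and B of the 4 groups correlated at 0.994 to 0.997 across genes. The median log2 difference between A and B was 0.14 in double hypoxia, against 0.10 in double normoxia, GLAD hypoxia and GLAD normoxia. In the other groups of the fit it was 0.22 in wild type normoxia, 0.08 in TIN hypoxia and 0.10 in TIN normoxia. Of 14 fibroblast markers 12 passed the filter, with collagens, Vim and Pdgfrb among them, while Thy1 reached only 0.202 CPM and Fap 0.626 CPM in any of the 8 libraries. Of the markers of other cell types, 2 of 11 epithelial, 3 of 9 endothelial, 4 of 10 myeloid, 6 of 10 muscle, 7 of 9 neural and 3 of 8 adipocyte markers passed the filter. Among them the neural markers Map2 and Nes reached 393 and 101 CPM, and the adipocyte marker Fabp4 59.4 CPM. Krt19 reached 35.0 CPM, Tek 12.8 CPM, Cd68 44.6 CPM and Csf1r 24.1 CPM. The defining markers Epcam, Cdh1, Ptprc and Pecam1 stayed under 1 CPM in all 8 libraries. The 11 epithelial markers together summed to 18.9 CPM in both double hypoxia libraries, 2.30 to 2.55 CPM in double normoxia, 34.2 to 37.7 CPM in GLAD hypoxia and 3.63 to 3.90 CPM in GLAD normoxia. The 10 myeloid markers together summed to 67.5 to 70.8 CPM in double hypoxia, 43.2 to 45.1 CPM in double normoxia, 72.7 to 73.9 CPM in GLAD hypoxia and 43.9 to 44.2 CPM in GLAD normoxia. The 9 neural markers together summed to 278 to 283 CPM in double hypoxia and 263 to 277 CPM in double normoxia. In GLAD they summed to 377 to 379 CPM in hypoxia and 426 to 439 CPM in normoxia. The part of all these markers in the results below was not tested.

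The interaction was called, meaning an adjusted p under 0.05 in limma with Benjamini-Hochberg adjustment over all 16157 genes, for 2354 genes, 14.6% of those tested. It was higher in double for 1115 genes (6.90%) and lower in double for 1239 (7.67%). A difference of at least 2-fold, an absolute log2 interaction of 1 or more, was called for 674 genes (4.17%), of which 326 (2.02%) were higher and 348 (2.15%) lower in double. The median interaction over all genes was -0.01. Fitting only the 8 libraries of double and GLAD gave 3304 called genes. When 1 library was left out at a time, 1442 to 1544 genes were called without any of 7 of the libraries, and 2285 without library B of double hypoxia.

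Most called genes responded to hypoxia in double, in GLAD or in both, and the responses differed in kind. Among the 2354 called genes, the hypoxia effect was called in double only for 444 with a positive and 489 with a negative interaction. It was called in GLAD only for 196 with a positive and 189 with a negative interaction. An effect that was not called in the other mutant is not shown to be absent there. Where both mutants responded in the same direction, the response was larger in double for 335 genes with a positive and 349 with a negative interaction, and larger in GLAD for 31 with a positive and 130 with a negative interaction. Hypoxia moved 176 genes, 1.09% of all tested, in opposite directions in the mutants, with the interaction and both hypoxia effects called. Of these reversing genes, 103 rose in double and fell in GLAD, and 73 fell in double and rose in GLAD. For the remaining genes, 6 positive and 9 negative, neither hypoxia effect was called on its own.

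**Figure D1:**
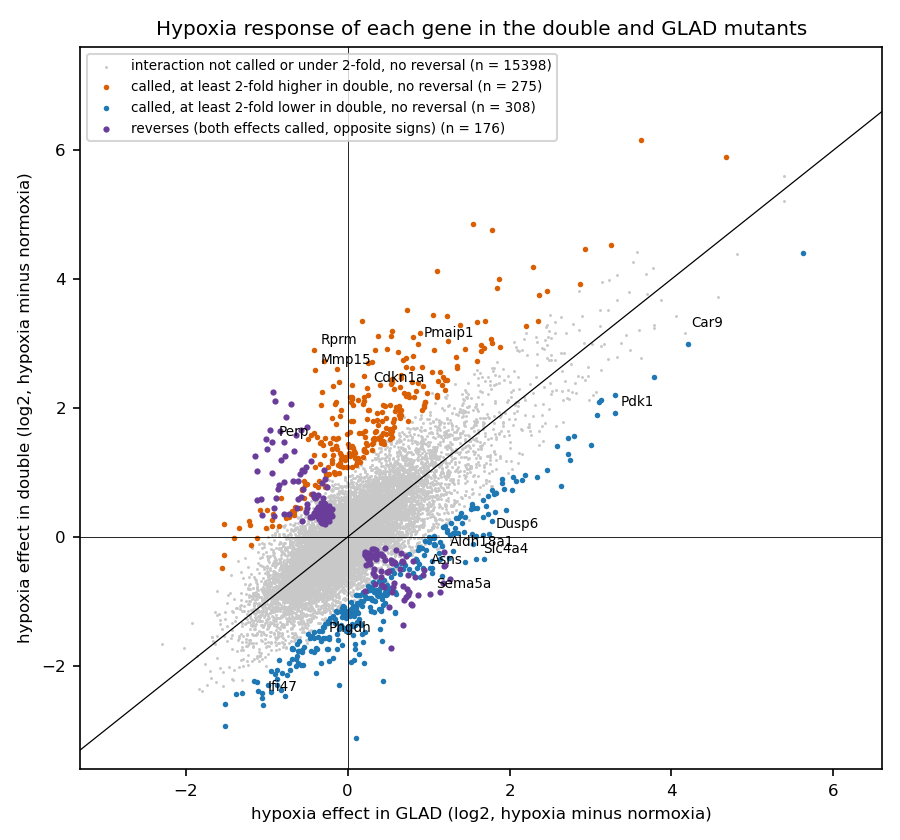
Hypoxia effect of each of 16157 genes in double (vertical axis) against that in GLAD (horizontal axis), as log2 of hypoxia over normoxia. Each point is a gene, the diagonal marks equal responses, and distance above or below it is the interaction; the 176 reversing genes lie in the upper left and lower right quadrants.

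Whether a different response began from a different level was read from the gap between the mutants, double minus GLAD, within each oxygen level. The interaction equals the gap in hypoxia minus the gap in normoxia, and both are made from the same libraries, so a gap in normoxia enters the interaction with its sign turned. Across all genes the gap was called for 6876 genes in hypoxia (42.6%) and for 5764 in normoxia (35.7%). Of the 674 genes with a called interaction of at least 2-fold, 201 (29.8%) had a called gap of at least 2-fold in hypoxia only, 113 of them with a positive and 88 with a negative interaction. A further 213 (31.6%) had such a gap in normoxia only, 94 positive and 119 negative: these genes stood apart before hypoxia and came within 2-fold of each other, or lost the call, in hypoxia. Another 200 (29.7%) had a gap of that size in neither condition, 47 had it in both with the same sign, and 13 had it in both with opposite signs.

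Where the normoxia gap was called, most genes with a positive interaction were lower in double at normal oxygen, and most genes with a negative interaction were higher. Among the 326 genes with a positive interaction of at least 2-fold, the gap in hypoxia was called for 241, with double higher in 213, and the gap in normoxia was called for 194, with double lower in 186. Among the 348 with a negative interaction, the gap in hypoxia was called for 218, with double lower in 169, and the gap in normoxia for 228, with double higher in 207. The median size of the gap over the 674 genes was 0.79 in hypoxia and 0.79 in normoxia on the log2 scale. Over all genes it was 0.28 in hypoxia and 0.24 in normoxia. An interaction of at least 2-fold requires a sizeable gap in hypoxia or in normoxia. The choice of genes thus favours larger gaps in advance, so nothing is drawn from this contrast. Since the same normoxia libraries enter the gap and the interaction, a response that starts from another level and a response that itself differs cannot be told apart in these data. On a linear scale, the change in CPM from hypoxia differed between the mutants in the same direction as the log2 interaction for 663 of the 674 genes. Over all genes this held for 14774 of 16157.

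**Figure D2:**
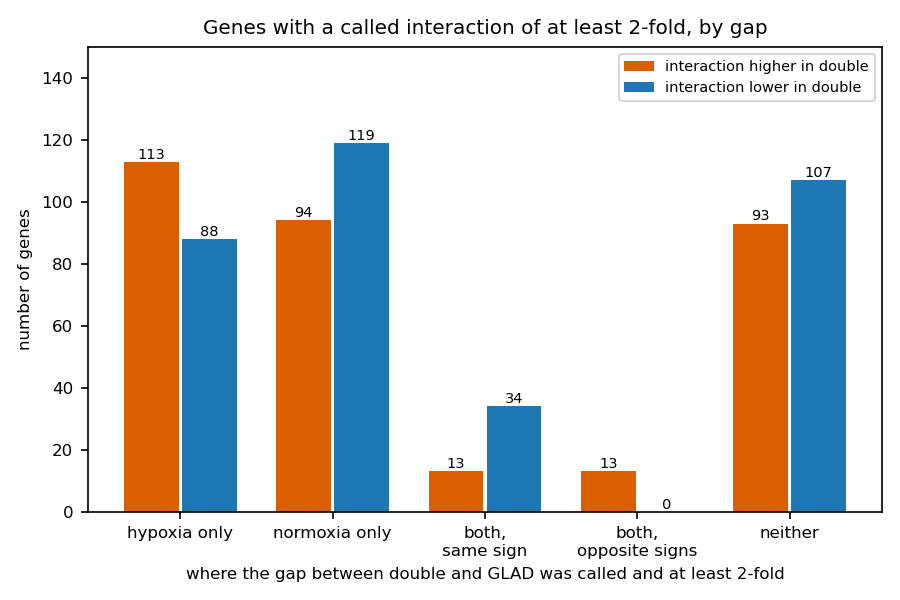
Number of genes with a called interaction of at least 2-fold (674 in all), split by the oxygen level in which the gap between double and GLAD was called and at least 2-fold. Orange bars count genes with a positive interaction and blue bars genes with a negative one; hypoxia only, normoxia only and neither each hold about as many genes (201, 213 and 200).

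Targets of p53 gave the highest median interaction of the 22 pathway lists. Of 34 p53 target genes, all of which passed the filter, 25 were called higher in double and 2 lower, against 6.90% of all genes called higher and 7.67% lower, and the median interaction was 0.96 against -0.01 over all genes. The median hypoxia effect of the list was 0.88 in double and -0.03 in GLAD. Whether p53 itself is functional in these transformed cells was not tested. These are bulk samples, in which fewer cells of a kind and less RNA per cell cannot be told apart.

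Cdkn1a (ENSMUSG00000023067, chr17:29090976-29100727, plus strand), which encodes the p21 inhibitor of cyclin-dependent kinases, had 452 and 424 CPM in double hypoxia, 87.8 and 87.7 CPM in double normoxia, 254 and 255 CPM in GLAD hypoxia and 217 and 214 CPM in GLAD normoxia. The libraries of the 4 groups did not overlap: double was above GLAD in hypoxia and below it in normoxia. Hypoxia changed Cdkn1a by 2.31 in double and 0.24 in GLAD (log2), an interaction of 2.08 ± 0.12 (adjusted p = 1.0e-08, limma). Mdm2, the ubiquitin ligase that p53 induces and that degrades p53, had 482 and 472 CPM in double hypoxia, 150.0 and 160.3 CPM in double normoxia, 296 and 291 CPM in GLAD hypoxia and 219.7 and 214 CPM in GLAD normoxia. Its interaction was 1.18 ± 0.09 (adjusted p = 4.5e-07, limma), and the order of the 4 groups was the same as for Cdkn1a. Pmaip1, which encodes the pro-death BH3-only protein Noxa, had 105 and 89.1 CPM in double hypoxia, 11.7 and 11.7 CPM in double normoxia, 34.5 and 32.2 CPM in GLAD hypoxia and 17.9 and 18.2 CPM in GLAD normoxia. Its interaction was 2.13 ± 0.17 (adjusted p = 3.3e-07, limma).

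Several p53 targets moved in opposite directions. Perp, a membrane protein of desmosomes that takes part in p53-dependent cell death, had 27.7 and 23.5 CPM in double hypoxia, 8.85 and 8.89 CPM in double normoxia, 18.6 and 20.9 CPM in GLAD hypoxia and 38.2 and 37.9 CPM in GLAD normoxia. Its libraries in double hypoxia and GLAD hypoxia lay close to each other, while those in normoxia were far apart, with a gap of 0.36 in hypoxia (adjusted p = 0.081, limma) and -2.04 in normoxia. Hypoxia raised Perp by 1.47 in double and changed it by -0.93 in GLAD, an interaction of 2.40 ± 0.23 (adjusted p = 2.3e-06, limma). Ccng1, which encodes cyclin G1, had 227 and 196 CPM in double hypoxia, 90.1 and 96.2 CPM in double normoxia, 235 and 224 CPM in GLAD hypoxia and 319 and 309.6 CPM in GLAD normoxia. Zmat3, an RNA-binding protein, had 71.7 and 59.8 CPM in double hypoxia, 50.7 and 52.6 CPM in double normoxia, 65.3 and 67.6 CPM in GLAD hypoxia and 138 and 139 CPM in GLAD normoxia. For both genes the hypoxia libraries of the mutants lay close and double normoxia was the lowest group. The gap of Ccng1 was -0.12 in hypoxia and -1.75 in normoxia, and that of Zmat3 was -0.02 in hypoxia and -1.42 in normoxia. In all, 12 of the 34 targets rose in double and fell in GLAD: Trp73, Perp, Ccng1, Dcxr, Cd80, Eda2r, Zmat3, Ephx1, Phlda3, Ptpn14, Ckap2 and Pltp. Ddb2, a damage sensor of nucleotide excision repair, fell in double and rose in GLAD, with an interaction of -0.63.

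In normoxia the gap was called with double lower for 25 of the 34 targets and with double higher for 4. Among the 25 targets with a called positive interaction, the normoxia gap was called for 23, all with double lower (17.2% of all genes were called lower). Their hypoxia gap was called for 16, with double higher in 11 and lower in 5. Choosing these 25 by a positive interaction favours double lower in normoxia. The gap was smaller in hypoxia than in normoxia for 17 of the 25. Bbc3, Gdf15, Gadd45a, Plk3, Rrm2b, Tnfrsf10b and Xpc were not called. Leaving out any 1 of the 8 libraries gave 23 to 25 members called higher and 0 to 2 lower. Plk2 was called higher at an interaction of 1.13, but gained 236 CPM in double and 269.7 CPM in GLAD.

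The letters of a paired p53 half-site core, CATG, any 6 bases and CATG, were searched in the 250 bases before the RefSeq start of each gene (GRCm38.p6), on both strands. They occurred in 0.49% of all 32851 windows, in 0.293% of the tested genes with a window, and in 1 of the 26 targets with one, Cdkn1a. The stretch that holds it lies at chr17:29090901-29090974, plus strand, 48 bases before one of the gene's starts, and is shown with the match in capitals because it is the only listed gene with a match. A match is a description of letters, not a measured binding site.
Cdkn1a: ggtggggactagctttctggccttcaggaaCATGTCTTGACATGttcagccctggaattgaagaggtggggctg

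**Figure D3:**
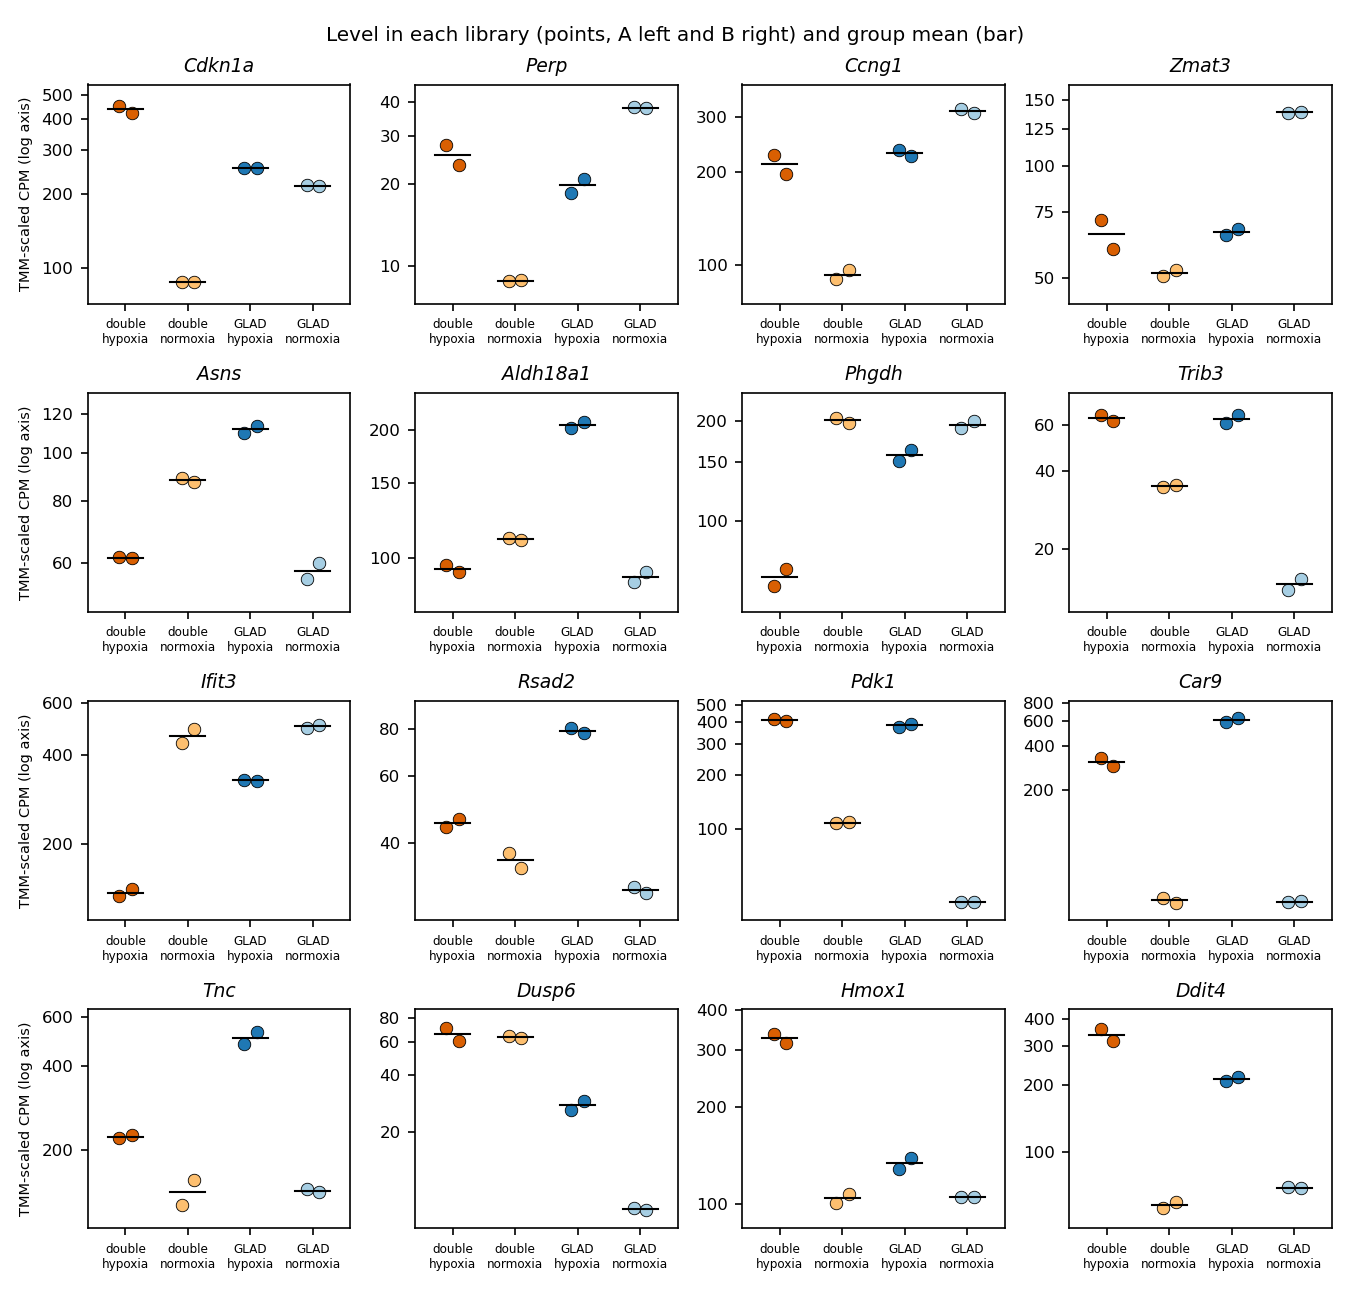
CPM after TMM scaling (log axis, own range in each panel) of 16 genes in the 2 libraries of double hypoxia, double normoxia, GLAD hypoxia and GLAD normoxia. Points are libraries, A left and B right, and bars are group means; Cdkn1a is highest in double hypoxia and lowest in double normoxia, and Asns is lower in double hypoxia than in double normoxia but higher in GLAD hypoxia than in GLAD normoxia.

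Outside the p53 list, the largest positive interactions belonged to genes that were low in double normoxia. Rprm, which encodes a p53-induced inhibitor of the cell cycle, had 12.3 and 11.4 CPM in double hypoxia, 1.22 and 1.10 CPM in double normoxia, 5.32 and 4.38 CPM in GLAD hypoxia and 6.40 and 6.77 CPM in GLAD normoxia. The gap was 1.22 in hypoxia and -2.09 in normoxia, both called, so the order of the mutants turned round between the oxygen levels, and the interaction was 3.31 ± 0.31 (adjusted p = 2.0e-06, limma). Mmp15, a membrane-bound matrix metalloproteinase, showed the same turn with 44.3 and 31.9 CPM in double hypoxia, 5.62 and 6.05 CPM in double normoxia, 11.1 and 12.1 CPM in GLAD hypoxia and 16.3 and 14.9 CPM in GLAD normoxia and an interaction of 2.99. Evpl, which encodes envoplakin of desmosomes and the cornified envelope, had 75.6 and 57.5 CPM in double hypoxia, 2.10 and 1.55 CPM in double normoxia, 5.61 and 5.48 CPM in GLAD hypoxia and 1.40 and 1.77 CPM in GLAD normoxia. Here the mutants were apart in hypoxia (gap 3.46) and close in normoxia (gap 0.16), an interaction of 3.30 ± 0.27 (adjusted p = 6.7e-07, limma). Cacna1h, a T-type calcium channel subunit, had 101 and 97.8 CPM in double hypoxia, 2.69 and 3.80 CPM in double normoxia, 48.6 and 50.5 CPM in GLAD hypoxia and 13.9 and 14.1 CPM in GLAD normoxia: double was above GLAD in hypoxia and below it in normoxia, and the interaction was 2.97. Fibcd1, Klhdc7a, Trp53i11, Itm2a and Slc37a2 followed with interactions of 2.53, 2.53, 2.43, 2.40 and 2.31. Fibcd1 was at 66.2 and 49.5 CPM in double hypoxia, 0.196 and 0.450 CPM in double normoxia, 13.4 and 14.1 CPM in GLAD hypoxia and 0.626 and 0.687 CPM in GLAD normoxia, so its normoxia values are a few reads per library.

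Among the largest negative interactions, several genes reversed. Sema5a, an axon guidance protein, had 16.00 and 15.1 CPM in double hypoxia, 26.5 and 32.3 CPM in double normoxia, 26.7 and 27.5 CPM in GLAD hypoxia and 12.03 and 14.3 CPM in GLAD normoxia. Flrt2, a cell adhesion protein, had 19.9 and 17.6 CPM in double hypoxia, 30.3 and 29.1 CPM in double normoxia, 31.8 and 33.9 CPM in GLAD hypoxia and 13.1 and 13.7 CPM in GLAD normoxia. Lrrn4cl had 11.7 and 13.6 CPM in double hypoxia, 22.3 and 23.9 CPM in double normoxia, 21.9 and 22.2 CPM in GLAD hypoxia and 8.85 and 10.7 CPM in GLAD normoxia. For these 3 genes double was below GLAD in hypoxia and above it in normoxia in every library, and the interactions were -1.91 ± 0.22, -1.91 ± 0.24 and -1.99 ± 0.22. Slc4a4, a sodium bicarbonate cotransporter, had 39.6 and 34.3 CPM in double hypoxia, 46.5 and 47.3 CPM in double normoxia, 65.3 and 64.9 CPM in GLAD hypoxia and 20.7 and 21.8 CPM in GLAD normoxia. Its interaction was -1.94 ± 0.22 (adjusted p = 1.3e-05, limma). The same crossing was present for Slc4a4, although its effect in double, -0.34, was not called (adjusted p = 0.063, limma).

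Other genes of this end, apart from Prelp, kept the order of the mutants in their group means. Tnfsf11, which encodes the cytokine RANKL, had 14.3 and 17.5 CPM in double hypoxia, 33.2 and 33.6 CPM in double normoxia, 7.34 and 6.64 CPM in GLAD hypoxia and 3.90 and 3.73 CPM in GLAD normoxia: double stayed above GLAD at both oxygen levels and the gap was narrower in hypoxia than in normoxia, giving an interaction of -1.85. Rgs16, a regulator of G protein signalling, had 13.6 and 18.8 CPM in double hypoxia, 9.14 and 8.89 CPM in double normoxia, 13.5 and 14.4 CPM in GLAD hypoxia and 1.54 and 2.16 CPM in GLAD normoxia. It rose in both mutants, more in GLAD, from a lower level there, with an interaction of -1.84. Tcim, Angptl7 (-1.84) and Prelp (-1.75) also had negative interactions, and their 2 libraries of double hypoxia were unequal. These had 8.03 and 17.1 CPM for Tcim, 5.85 and 11.8 CPM for Angptl7 and 1.81 and 4.39 CPM for Prelp. The gap of Prelp was 1.23 in normoxia and -0.52 in hypoxia, where it was not called (adjusted p = 0.12, limma). Tll1, a matrix-processing metalloproteinase, had an interaction of -1.74 at 1.76 and 1.26 CPM in double hypoxia, 5.08 and 3.80 CPM in double normoxia, 9.45 and 9.21 CPM in GLAD hypoxia and 7.70 and 5.88 CPM in GLAD normoxia.

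The reversing genes were examined as a set for the size of their moves and for their levels. Only Gjb5, St14 and Klhdc7a changed by at least 2-fold in both mutants, all 3 up in double and down in GLAD, and all 3 with at least 1 group at or under 1 CPM. Klhdc7a had 4.19 and 2.77 CPM in double hypoxia, 0.783 and 0.949 CPM in double normoxia, 6.35 and 5.94 CPM in GLAD hypoxia and 13.3 and 12.4 CPM in GLAD normoxia. Gjb5, a connexin, had 1.97 and 1.46 CPM in double hypoxia, 0.489 and 0.350 CPM in double normoxia, 1.13 and 0.956 CPM in GLAD hypoxia and 2.89 and 2.94 CPM in GLAD normoxia. St14, the membrane protease matriptase, had 1.50 and 0.605 CPM in double hypoxia, 0.391 CPM or less in double normoxia, 0.640 and 0.905 CPM in GLAD hypoxia and 1.83 and 2.75 CPM in GLAD normoxia. With 1 CPM added before the log in place of 0.5, none of the 3 kept 2-fold in both mutants. At higher levels, Crip2 had 16.2 and 19.9 CPM in double hypoxia, 9.48 and 8.10 CPM in double normoxia, 12.1 and 11.02 CPM in GLAD hypoxia and 21.3 and 23.8 CPM in GLAD normoxia. Hypoxia brought it up in double and down in GLAD by about equal steps, 0.99 and -0.94.

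The mutants already differed in normoxia for most reversing genes. The hypoxia gap was called for 125 of the 176 and the normoxia gap for 130, and the gap was called in both with opposite signs for 51, in normoxia alone for 51 and in hypoxia alone for 46. Of the 73 genes up in double with a called normoxia gap, double was lower in 71. Of the 57 genes down in double with one, double was higher in 55. The normoxia gap enters the interaction with its sign turned, so choosing genes by the interaction favours these signs. The gap was smaller in hypoxia than in normoxia for 109 of the 176 and larger for 67. On the linear scale, the difference between the mutants' changes in CPM had the sign of the log2 interaction for all 176. The choice of genes with opposite changes nearly fixes this count in advance, so nothing is drawn from it.

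Most genes of the integrated stress response, enzymes of amino acid synthesis among them, had a lower hypoxia response in double than in GLAD. Of 25 listed genes, all tested, 15 were called lower in double and 2 higher, against 7.67% of all genes called lower and 6.90% higher, with a median interaction of -0.63. The median hypoxia effect was 0.10 in double and 0.60 in GLAD, and the median gap was -0.02 in hypoxia and 0.50 in normoxia. The list holds 5 of the reversing genes, and all 5 fell in double and rose in GLAD.

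Asns (ENSMUSG00000029752, chr6:7675169-7693254, minus strand), which makes asparagine, had 61.5 and 61.3 CPM in double hypoxia, 89.1 and 87.2 CPM in double normoxia, 109.9 and 114 CPM in GLAD hypoxia and 55.6 and 59.98 CPM in GLAD normoxia. The libraries ran in opposite orders: in hypoxia both double libraries lay below both GLAD libraries, and in normoxia both lay above. Hypoxia changed Asns by -0.52 in double and by 0.95 in GLAD, an interaction of -1.46 ± 0.10 (adjusted p = 9.8e-08, limma). Aldh18a1, which makes the proline precursor, had 95.9 and 92.3 CPM in double hypoxia, 111 and 109.8 CPM in double normoxia, 202 and 208 CPM in GLAD hypoxia and 87.5 and 92.3 CPM in GLAD normoxia. GLAD hypoxia alone stood apart, above the other 6 libraries. Its interaction was -1.42 ± 0.10 (adjusted p = 8.0e-08, limma). Phgdh, the entry enzyme of serine synthesis, had 63.2 and 71.4 CPM in double hypoxia, 204 and 198 CPM in double normoxia, 151 and 163 CPM in GLAD hypoxia and 190.1 and 199 CPM in GLAD normoxia. It fell in both mutants, with log2 effects of -1.57 in double and -0.31 in GLAD, and its normoxia gap of 0.04 was not called (adjusted p = 0.71, limma).

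Serine and glycine genes further along the pathway moved in the same sense with smaller values. Psat1 and Shmt2 reversed, with interactions of -0.80 and -0.83, as did Gpt2, an alanine transaminase, with -0.89. Chac1, a glutathione-degrading enzyme, had 10.4 and 15.1 CPM in double hypoxia, 35.7 and 31.4 CPM in double normoxia, 14.9 and 15.6 CPM in GLAD hypoxia and 13.7 and 15.5 CPM in GLAD normoxia: double normoxia was the high group and the other 6 libraries overlapped. Trib3, a pseudokinase induced by ATF4, had 65.7 and 62.3 CPM in double hypoxia, 34.4 and 35.2 CPM in double normoxia, 60.9 and 65.4 CPM in GLAD hypoxia and 13.9 and 15.3 CPM in GLAD normoxia. Its gap was 0.02 in hypoxia, which was not called, and 1.23 in normoxia, and the interaction was -1.21 ± 0.16. The transcription factors Atf4 (-0.20, adjusted p = 0.38) and Ddit3 (0.16, adjusted p = 0.49) were not called in limma, while Atf3 (0.47) and the p53 and ATF4 target Sesn2 (0.94) were called higher in double.

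The core of the amino acid response element that ATF4 is known to bind, searched as TGATGNAA (N is any base) on both strands of the same 250 base windows, occurred in 3.45% of all windows, in 2.41% of tested genes with a window and in 7 of 22 listed genes (31.8%). Among the called members it occurred in 5 of 15, so members that were not called held it as well. The matches of the called members with the largest interactions are shown with their flanks, capitals marking the match: Asns at chr6:7693210-7693262, minus strand, and Chac1 at chr2:119351019-119351086, plus strand, where the match is on the opposite strand.
Asns: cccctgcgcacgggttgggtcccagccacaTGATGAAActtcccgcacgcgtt
Chac1: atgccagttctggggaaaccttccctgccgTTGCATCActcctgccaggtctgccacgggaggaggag

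Most interferon-stimulated genes had a lower hypoxia response in double than in GLAD. Of 55 listed genes, all tested, 42 were called lower in double and none higher, against 7.67% of all genes called lower, and the median interaction was -0.68. Their median hypoxia effect was -0.87 in double and -0.20 in GLAD. In contrast to the p53 list, the gap was called more often in hypoxia, for 44 of the 55 genes, with double lower in 39. In normoxia it was called for 22, with double higher in 17. Over all genes, 21.0% were called lower in hypoxia and 18.5% higher in normoxia. Among the 42 called genes the hypoxia gap was called for 37, with double lower in 35. Their normoxia gap was called for 16, with double higher in 13. Choosing these 42 by a negative interaction favours double lower in hypoxia and higher in normoxia.

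Ifit3 (chr19:34583531-34588731, plus strand), an interferon-induced antiviral protein with tetratricopeptide repeats, had 132 and 140.0 CPM in double hypoxia, 439.6 and 489 CPM in double normoxia, 329 and 327 CPM in GLAD hypoxia and 496 and 508 CPM in GLAD normoxia. The normoxia libraries of the 2 mutants were close, and double hypoxia was the lowest group, with an interaction of -1.15 ± 0.13 (adjusted p = 1.4e-05, limma). Reads of Ifit3 may be shared with its near copy Ifit3b, so the split between them is uncertain; the same holds for Oas1a and Oas1g and for the Gbp and Ifi200 families. Ifit1 had 147 and 163 CPM in double hypoxia, 517 and 500.5 CPM in double normoxia, 277 and 272 CPM in GLAD hypoxia and 482 and 469 CPM in GLAD normoxia. Double hypoxia was again the lowest group, and the interaction was -0.92 ± 0.10.

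Single genes departed from this order. Rsad2, the antiviral enzyme viperin, had 44.1 and 46.1 CPM in double hypoxia, 37.5 and 34.2 CPM in double normoxia, 80.3 and 78.3 CPM in GLAD hypoxia and 30.5 and 29.5 CPM in GLAD normoxia: it rose in both mutants, with log2 effects of 0.33 in double and 1.39 in GLAD. Zbp1, a sensor of Z-form nucleic acids, had 73.7 and 63.4 CPM in double hypoxia, 154 and 154 CPM in double normoxia, 45.9 and 44.6 CPM in GLAD hypoxia and 45.96 and 48.99 CPM in GLAD normoxia. Double was the higher mutant in both conditions and came nearer to GLAD in hypoxia. Ifi47, a GTPase, had 6.63 and 9.03 CPM in double hypoxia, 47.96 and 43.9 CPM in double normoxia, 16.3 and 16.7 CPM in GLAD hypoxia and 34.5 and 35.4 CPM in GLAD normoxia, with the largest fall of the list in double, -2.49, against -1.06 in GLAD. Oas3, a sensor of double-stranded RNA, had the most negative interaction of the list, -1.53 ± 0.25 (adjusted p = 3.7e-04, limma), with 12.5 and 12.2 CPM in double hypoxia, 26.99 and 27.6 CPM in double normoxia, 23.7 and 24.2 CPM in GLAD hypoxia and 18.1 and 17.5 CPM in GLAD normoxia. Ddx58, which encodes the RNA sensor RIG-I, was the only reversing gene of the list, with -0.44 in double and 0.23 in GLAD. Irf7 was not called (-0.33, adjusted p = 0.081, limma), nor were Cxcl10, Mx2 and Irf1. Leaving out 1 library at a time gave 34 to 41 genes called lower.

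The interferon-stimulated response element core, searched as GAAA, any 2 bases and GAAA on both strands, occurred in 2.98% of all windows, in 3.15% of tested genes with a window and in 20 of 41 listed genes with one (48.8%). It occurred in 15 of the 31 called members with a window, a share of 48.4%. The elements of Oas3 at chr5:120777695-120777764, minus strand, and of Ifit3 at chr19:34583377-34583446, plus strand, with the match on the opposite strand, are printed as the called members with the largest interactions that hold one.
Oas3: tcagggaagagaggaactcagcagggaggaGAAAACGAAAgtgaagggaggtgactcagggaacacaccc
Ifit3: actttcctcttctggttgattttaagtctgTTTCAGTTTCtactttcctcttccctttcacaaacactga

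Most glycolytic genes rose in hypoxia in both mutants, and most had a larger log2 effect in GLAD. Of 22 tested genes of a list of 23, 15 were called lower in double and none higher, against 7.67% of all genes called lower, and the median interaction was -0.48. Their median hypoxia effect was 1.21 in double and 1.78 in GLAD. With 1 library left out at a time the median interaction was -0.54 to -0.42. With no filter on low values, 10 genes were called lower. For 13 of the 15 called genes both mutants responded in the same direction and GLAD by more.

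Several of these genes were close in hypoxia and apart in normoxia. Pdk1, the kinase that keeps pyruvate out of mitochondria, had 416 and 409 CPM in double hypoxia, 107 and 109 CPM in double normoxia, 378 and 392 CPM in GLAD hypoxia and 38.5 and 38.7 CPM in GLAD normoxia. The hypoxia libraries lay close, with a gap of 0.10 (adjusted p = 0.35, limma), while the normoxia gap was 1.47, and the interaction was -1.37 ± 0.11 (adjusted p = 6.7e-07, limma). Ldha, which converts pyruvate to lactate, had 2177 and 2132 CPM in double hypoxia, 933 and 964 CPM in double normoxia, 1918 and 2055 CPM in GLAD hypoxia and 493 and 528 CPM in GLAD normoxia. Pgk1, a phosphoglycerate kinase, had 1148 and 1159 CPM in double hypoxia, 434 and 454 CPM in double normoxia, 1199 and 1264 CPM in GLAD hypoxia and 306 and 309 CPM in GLAD normoxia. In both genes the hypoxia gap was not called (0.12 and -0.09) and double was higher in normoxia (0.89 and 0.53), with interactions of -0.78 and -0.62.

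In the whole list of 22, double was called higher in normoxia for 16 genes and lower for 1. Over all genes, 18.5% were called higher in normoxia. Choosing genes by a negative interaction favours a higher double in normoxia. Among all 15 called glycolytic genes, the hypoxia gap was called for 6, with double higher in 4. Their normoxia gap was called for 13, with double higher in all 13. For 3 of the 15 the gain in CPM was larger in double, opposite to the sign on the log2 scale. Slc2a1, the glucose transporter GLUT1, gained 699 CPM in double and 512 CPM in GLAD, although its log2 interaction was -0.51. Hk2, a hexokinase, gained 210.4 CPM in double and 184 CPM in GLAD at an interaction of -1.02. Slc16a3, the lactate exporter MCT4, gained 79.5 CPM in double and 27.0 CPM in GLAD at an interaction of -1.19, with 119 and 96.8 CPM in double hypoxia, 28.8 and 28.03 CPM in double normoxia, 27.9 and 32.3 CPM in GLAD hypoxia and 3.61 and 2.65 CPM in GLAD normoxia. Double was thus above GLAD for Slc16a3 at both oxygen levels, and its smaller fold came with the larger gain.

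The hypoxia response element core, searched as ACGTG on both strands, is short and occurred in 16.6% of all windows, in 24.7% of tested genes with a window and in 10 of 22 glycolytic genes (45.5%). It occurred in 9 of the 15 called genes and in 1 of the 7 others. The match nearest the start is capitalised for Slc16a3 at chr11:120949023-120949066, plus strand, and for Hk2 at chr6:82774472-82774536, minus strand, where it lies on the opposite strand, as these 2 members had the largest called interactions among those with a match.
Slc16a3: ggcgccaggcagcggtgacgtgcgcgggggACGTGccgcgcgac
Hk2: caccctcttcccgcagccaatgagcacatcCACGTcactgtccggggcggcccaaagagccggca

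HIF targets outside glycolysis responded in both mutants, and the list split. Of 37 tested genes, 34 rose in double and 34 in GLAD, against 25.8% of all genes called up in double and 22.1% in GLAD (30.2% and 26.0% called down), with median hypoxia effects of 2.20 in double and 2.34 in GLAD. The interaction was called higher in double for 8 and lower for 13, against 6.90% of all genes called higher and 7.67% lower. The median was -0.19, or -0.07 without library B of double hypoxia. Without library A of double hypoxia, library A of GLAD hypoxia or library A of GLAD normoxia the number called higher was 4, and it was 5 without library B of GLAD hypoxia, of GLAD normoxia or either library of double normoxia, and 5 with no filter on low values.

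The genes called lower in double include Car9 and Vegfa. Car9, which encodes carbonic anhydrase IX, had 334 and 291 CPM in double hypoxia, 35.9 and 32.8 CPM in double normoxia, 589.7 and 630.1 CPM in GLAD hypoxia and 33.3 and 33.8 CPM in GLAD normoxia. Its gap was -0.97 in hypoxia and 0.03 in normoxia, where it was not called (adjusted p = 0.82, limma), and the interaction was -0.998 ± 0.14 (adjusted p = 7.7e-05, limma). Vegfa, the angiogenic growth factor, had 363 and 353 CPM in double hypoxia, 75.5 and 75.4 CPM in double normoxia, 264 and 242 CPM in GLAD hypoxia and 34.7 and 36.2 CPM in GLAD normoxia: double was higher at both oxygen levels, and the interaction was -0.58 ± 0.10, although the gain was 283 CPM in double and 218 CPM in GLAD. Egln1, Mxi1, Ero1l and Fam162a were likewise called lower with a larger gain in CPM in double, so 5 of the 13 differ in sign between the scales, as does Car12 among those called higher. Ak4, a mitochondrial adenylate kinase, and Bnip3, a mitophagy receptor, had smaller gaps in hypoxia, 0.04 for Ak4 and -0.14 for Bnip3, than in normoxia, 1.25 for Ak4 and 0.69 for Bnip3. Stc2, a secreted glycoprotein, had a hypoxia effect of 0.02 in double, which was not called (adjusted p = 0.95, limma), and rose by 1.58 in GLAD, with 12.9 and 16.7 CPM in double hypoxia, 15.7 and 13.4 CPM in double normoxia, 10.8 and 12.6 CPM in GLAD hypoxia and 3.85 and 3.29 CPM in GLAD normoxia.

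Those called higher in double include Hmox1, Ddit4 and Car12. What sets them apart from the genes called lower was not tested. Hmox1, which encodes heme oxygenase and is also a target of the oxidant-responsive factor NRF2, had 336 and 316 CPM in double hypoxia, 100.1 and 107 CPM in double normoxia, 128 and 139 CPM in GLAD hypoxia and 105 and 105 CPM in GLAD normoxia. The 4 normoxia libraries lay close and double hypoxia stood above GLAD hypoxia, an interaction of 1.30 ± 0.12 (adjusted p = 1.4e-06, limma). Ddit4, an inhibitor of mTOR signalling, had an interaction of 0.92 ± 0.11 with 358 and 318 CPM in double hypoxia, 55.5 and 59.3 CPM in double normoxia, 209 and 218 CPM in GLAD hypoxia and 69.01 and 68.2 CPM in GLAD normoxia.

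**Figure D4:**
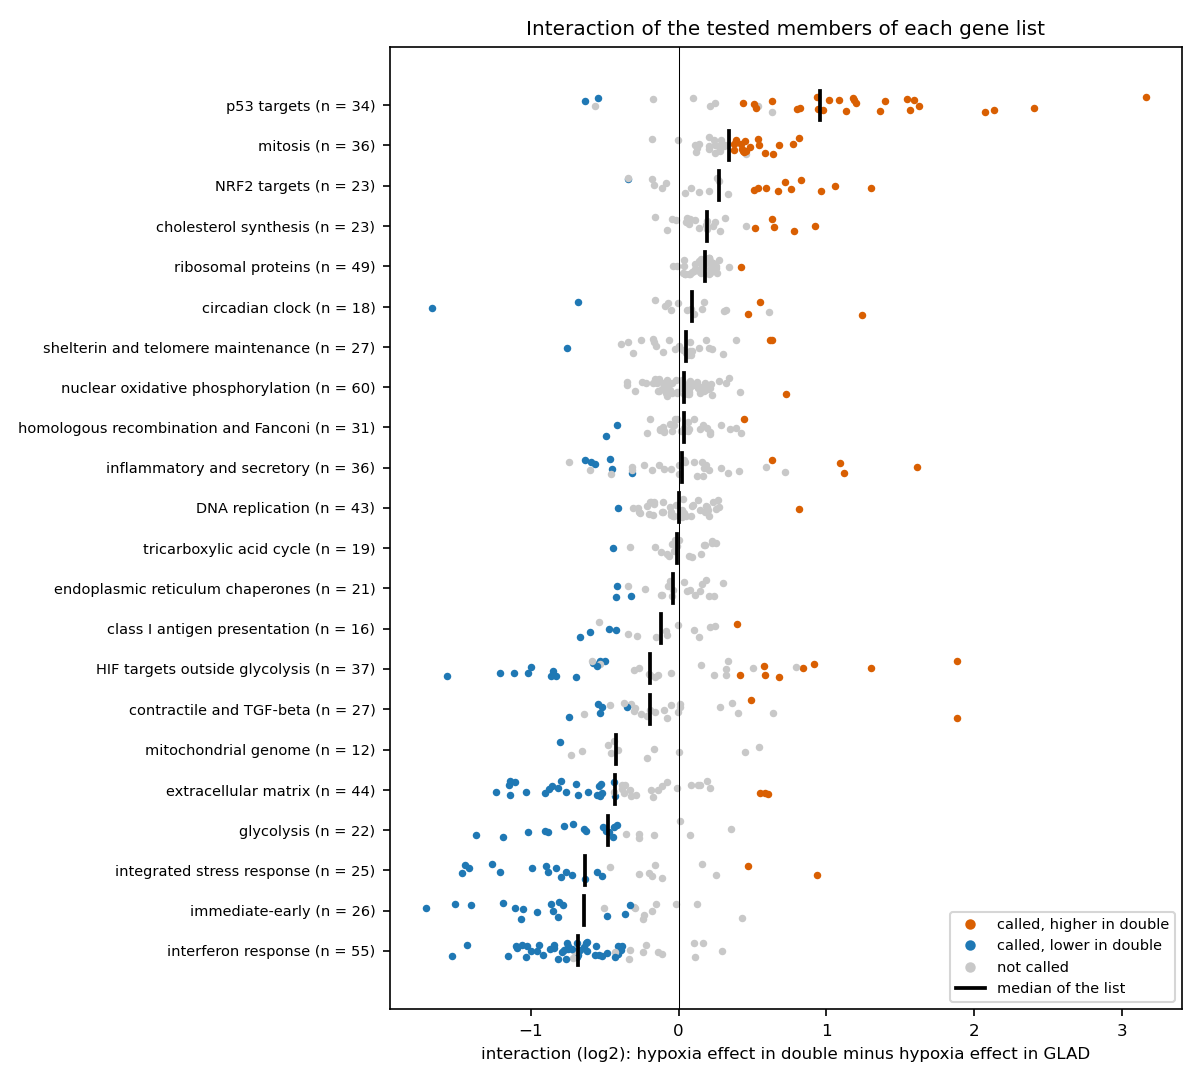
Interaction (log2, horizontal axis) of every tested member of 22 pathway lists, ordered by list median. Points are genes, coloured where called higher or lower in double, and black bars are list medians, which run from 0.96 for p53 targets to -0.68 for interferon response genes.

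Immediate-early genes, the fast targets of growth factor and stress signalling, mostly rose in hypoxia, and most had a larger log2 effect in GLAD. Of 26 tested genes, 16 were called lower in double and none higher, against 7.67% of all genes called lower, with a median interaction of -0.64. The median hypoxia effect was 0.94 in double and 1.64 in GLAD, and the median gap 0.24 in hypoxia and 0.78 in normoxia. Dusp6, a phosphatase that switches off ERK, had 70.95 and 60.8 CPM in double hypoxia, 64.5 and 63.2 CPM in double normoxia, 26.2 and 29.2 CPM in GLAD hypoxia and 7.94 and 7.80 CPM in GLAD normoxia. Its hypoxia effect in double, 0.04, was not called (adjusted p = 0.79, limma), in GLAD it rose by 1.75, and both double groups stayed above both GLAD groups. Spry4, an inhibitor of receptor tyrosine kinase signalling, had 7.41 and 8.42 CPM in double hypoxia, 9.78 and 8.74 CPM in double normoxia, 8.81 and 10.3 CPM in GLAD hypoxia and 3.85 and 3.33 CPM in GLAD normoxia. GLAD normoxia alone was low. Nr4a1, a nuclear receptor, had 51.6 and 64.8 CPM in double hypoxia, 29.4 and 30.8 CPM in double normoxia, 59.7 and 72.4 CPM in GLAD hypoxia and 12.8 and 12.4 CPM in GLAD normoxia, with overlapping libraries in hypoxia.

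Egr1 and Myc, both transcription factors, followed Nr4a1 with interactions of -0.87 and -0.96, hypoxia gaps of -0.12 and -0.15 and normoxia gaps of 0.75 and 0.81. In the whole list of 26, double was called higher in normoxia for 20 genes and lower for 2. Over all genes, 18.5% were called higher in normoxia. Choosing genes by a negative interaction favours a higher double in normoxia. Among the 16 called genes, the hypoxia gap was called for 9 and the normoxia gap for 14, with double higher in all 14. For 5 of the 16, Jun, Ier3, Fosl1, Dusp1 and Fos, the gain in CPM was nevertheless larger in double. Leaving out 1 library at a time gave 11 to 16 called lower.

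**Figure D5:**
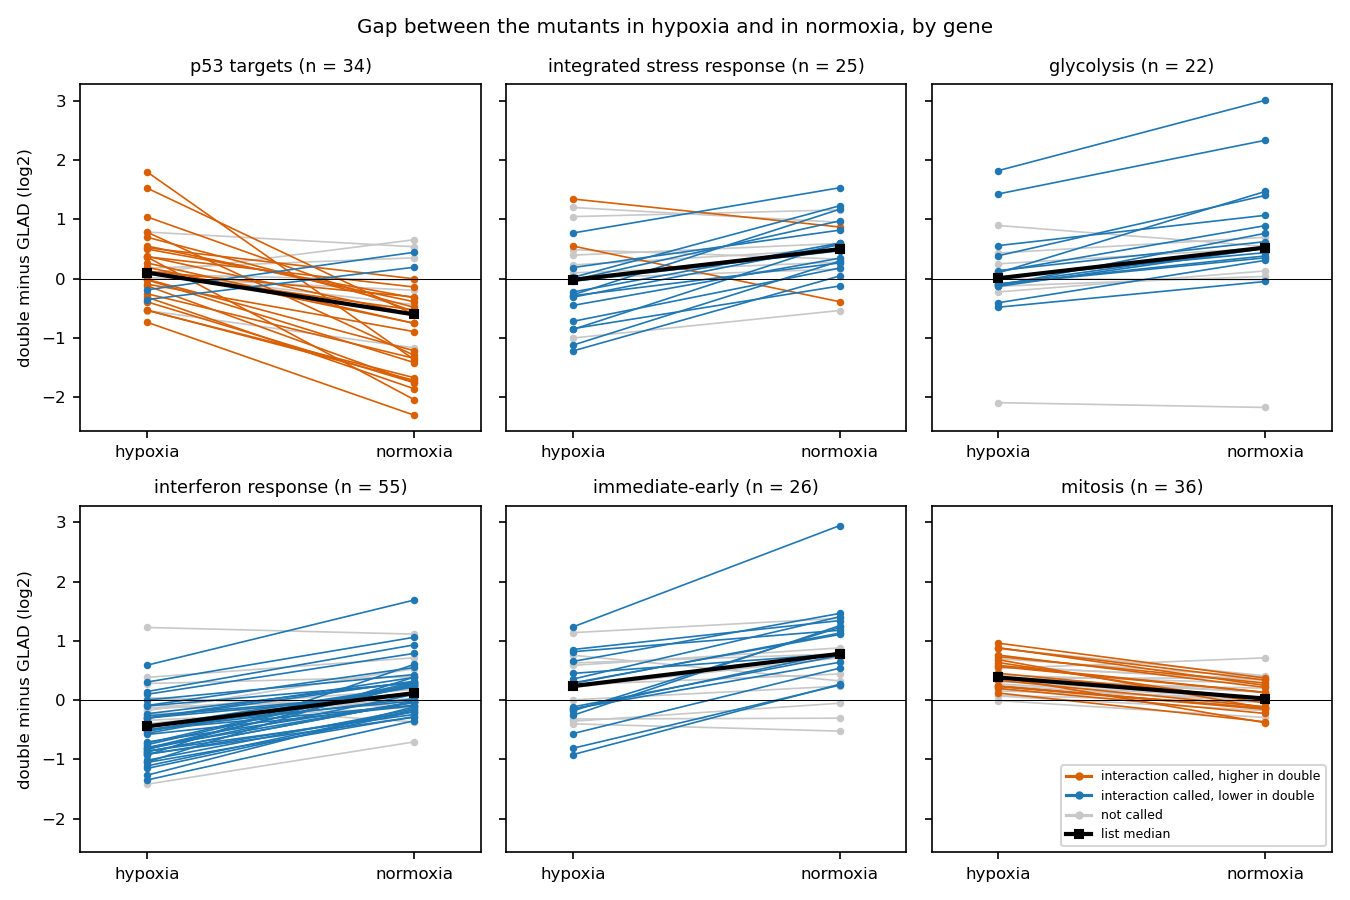
Gap between the mutants, double minus GLAD (log2), in hypoxia and in normoxia for each tested gene of 6 lists. Each line is a gene, coloured where the interaction was called, and black squares are list medians; the p53 median is 0.10 in hypoxia and -0.60 in normoxia, the interferon median -0.44 in hypoxia and 0.12 in normoxia.

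Of 44 tested genes of the extracellular matrix, 22 were called lower in double, 3 higher and 19 were not called. Over all genes 7.67% were called lower and 6.90% higher. The median interaction of the list was -0.43, and -0.47 to -0.38 with 1 library left out at a time. With no filter on low values, 17 of the list were called lower. Tnc, which encodes tenascin C, had 220.1 and 226 CPM in double hypoxia, 127 and 157 CPM in double normoxia, 480.2 and 527 CPM in GLAD hypoxia and 145 and 142 CPM in GLAD normoxia: the normoxia libraries of the mutants overlapped and GLAD hypoxia stood highest, with an interaction of -1.15 ± 0.12 (adjusted p = 7.7e-06, limma). Col3a1, a fibrillar collagen, had 687 and 639 CPM in double hypoxia, 1457 and 1477 CPM in double normoxia, 586 and 658 CPM in GLAD hypoxia and 605 and 677 CPM in GLAD normoxia. Lamb1, a laminin chain, had 200.3 and 217 CPM in double hypoxia, 415 and 457 CPM in double normoxia, 189 and 213 CPM in GLAD hypoxia and 172 and 184 CPM in GLAD normoxia. In both, double normoxia was the single high group and the other 6 libraries lay close together, with interactions of -1.10 ± 0.11 and -1.24 ± 0.11. Col6a3 had 1363 and 1342 CPM in double hypoxia, 946 and 1254 CPM in double normoxia, 1404 and 1633 CPM in GLAD hypoxia and 542 and 564 CPM in GLAD normoxia, with unequal libraries in double normoxia.

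Fibroblast markers moved with this list. Their interaction was called lower in double for 5 of 12 tested markers, Col3a1, S100a4, Pdgfrb, Col1a2 and Pdgfra, and higher for none, against 7.67% of all genes called lower, with a median of -0.41. Summed over all 14 markers, they made up 6274 to 6281 CPM in double hypoxia, 8045 to 8579 CPM in double normoxia, 7317 to 8200.0 CPM in GLAD hypoxia and 8192 to 8547 CPM in GLAD normoxia. The interaction of Pdgfrb was -0.63, and -0.39 without library A of double hypoxia. Col1a2 had 359 and 340.4 CPM in double hypoxia, 601 and 633 CPM in double normoxia, 1258 and 1435 CPM in GLAD hypoxia and 1513 and 1585 CPM in GLAD normoxia, and was lower in double at both oxygen levels. Collagens are members of both lists, and the part of the fibroblast markers in the matrix result was not tested.

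Of 36 tested mitotic genes, 17 were called higher in double, none lower and 19 were not called, against 6.90% of all genes called higher, with a median interaction of 0.34, and the median hypoxia effect was -0.05 in double and -0.38 in GLAD. The number called depended on single libraries and on the filter: it was 8 with no filter on low values, 7 without library A of double hypoxia, 9 without library B of GLAD hypoxia or of GLAD normoxia, and 11 without library A of double normoxia or of GLAD hypoxia. Cenpe, a kinetochore motor, had 209 and 183 CPM in double hypoxia, 130.0 and 159.9 CPM in double normoxia, 126 and 118 CPM in GLAD hypoxia and 152 and 165 CPM in GLAD normoxia, and reversed with an interaction of 0.82 ± 0.13 (adjusted p = 3.0e-04, limma). Cdc20, an activator of the anaphase-promoting complex, had 114 and 99.4 CPM in double hypoxia, 125 and 132 CPM in double normoxia, 75.7 and 86.6 CPM in GLAD hypoxia and 158 and 177 CPM in GLAD normoxia: it fell in both mutants, with log2 effects of -0.27 in double and -1.04 in GLAD. Tpx2, a spindle assembly factor, had 409.5 and 369 CPM in double hypoxia, 273 and 311 CPM in double normoxia, 211 and 209.5 CPM in GLAD hypoxia and 237 and 255 CPM in GLAD normoxia, and reversed with an interaction of 0.64 ± 0.11. The proliferation marker Mki67 was not called (0.46, adjusted p = 0.062, limma).

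NRF2 targets, which make glutathione and NADPH and detoxify heme and quinones, showed 10 of 23 tested genes called higher in double and 1 lower, G6pdx, against 6.90% of all genes called higher and 7.67% lower, with a median of 0.27. With no filter on low values 6 were called higher. Txnrd1, a thioredoxin reductase, had 467 and 418 CPM in double hypoxia, 234 and 227 CPM in double normoxia, 289 and 285 CPM in GLAD hypoxia and 288 and 297 CPM in GLAD normoxia: it rose in double, and its effect of -0.03 in GLAD was not called (adjusted p = 0.78, limma), with an interaction of 0.96 ± 0.10. Gclm, a subunit of the enzyme that starts glutathione synthesis, had 69.2 and 60.4 CPM in double hypoxia, 48.8 and 44.6 CPM in double normoxia, 45.1 and 47.9 CPM in GLAD hypoxia and 58.95 and 61.2 CPM in GLAD normoxia, and reversed. Nqo1 (-0.09) and Slc7a11 (-0.18) of the same list were not called, with adjusted p of 0.75 and 0.54 in limma.

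Of 27 tested genes of shelterin and telomere maintenance, 2 were called higher in double, 1 lower and 24 were not called, near the share of 14.6% called among all genes. The number called higher was 0 to 3 with 1 library left out. Wrap53, which guides telomerase to Cajal bodies, had 51.9 and 52.5 CPM in double hypoxia, 34.7 and 33.6 CPM in double normoxia, 26.8 and 31.2 CPM in GLAD hypoxia and 28.3 and 30.7 CPM in GLAD normoxia. Its interaction was 0.63 ± 0.16 (adjusted p = 0.013, limma). Pif1, a helicase that unwinds telomeric DNA, had 4.87 and 5.40 CPM in double hypoxia, 18.1 and 16.6 CPM in double normoxia, 5.42 and 5.38 CPM in GLAD hypoxia and 29.3 and 27.3 CPM in GLAD normoxia: it fell in both mutants, with log2 effects of -1.67 in double and -2.29 in GLAD, and the hypoxia libraries overlapped. Its interaction of 0.62 ± 0.19 (adjusted p = 0.034, limma) lost the call when any 1 of 6 libraries was left out (all but library A of double hypoxia and library A of double normoxia), with adjusted p of up to 0.12. That of Wrap53 was lost without library B of double normoxia or library A of GLAD hypoxia, with adjusted p of up to 0.062. Tep1, a telomerase-associated protein, had 30.6 and 29.6 CPM in double hypoxia, 43.9 and 47.7 CPM in double normoxia, 32.00 and 34.7 CPM in GLAD hypoxia and 29.7 and 29.9 CPM in GLAD normoxia. Double normoxia was the high group, and the interaction was -0.76 ± 0.13. The shelterin genes Terf2, Terf2ip, Tinf2, Acd, Pot1a and Pot1b had interactions between -0.39 and 0.14, with none called, and Tert did not pass the filter at 0.308 CPM or less.

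In other large machineries, and against 14.6% of all genes, the interaction was called for 1 of 60 nuclear genes of oxidative phosphorylation (Ndufb6, 0.73), 1 of 19 genes of the tricarboxylic acid cycle (Dlat, -0.44), 2 of 43 DNA replication genes (Rrm2, 0.81, and Rfc2, -0.41), 3 of 31 genes of homologous recombination and the Fanconi pathway, 3 of 21 chaperones of the endoplasmic reticulum and 1 of 49 ribosomal protein genes (Rpl22, 0.42). The median of the ribosomal list was 0.18, but 0.06 without library B of double hypoxia and 0.28 without library A of it, and reads of ribosomal protein genes may be shared with processed copies. The calls of Dlat, Rfc2 and Rpl22 were lost in 6, 8 and 6 of the 8 fits that left out 1 library, those of Exo1 and Fancg of the recombination list in 8 and 7, and those of the chaperones Calr and Hyou1 in 7 and 6. Rrm2, a subunit of ribonucleotide reductase, had 228 and 198 CPM in double hypoxia, 137 and 134 CPM in double normoxia, 122 and 118 CPM in GLAD hypoxia and 135 and 135 CPM in GLAD normoxia: double was higher in hypoxia, and the normoxia libraries lay close. For Ndufb6, a subunit of complex I, GLAD normoxia was the high group, with 19.2 and 21.1 CPM in double hypoxia, 18.6 and 22.7 CPM in double normoxia, 23.6 and 22.7 CPM in GLAD hypoxia and 40.8 and 38.3 CPM in GLAD normoxia. A gene that was not called is not shown to respond alike in the mutants: the interaction of Terf2, for example, was 0.07 ± 0.12 (SE).

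For comparison, the mutant with the TIN substitution alone was set beside these values for 4 genes, without a test. Cdkn1a had 244 and 228 CPM in TIN hypoxia, 32.4 and 27.4 CPM in TIN normoxia and 96.7 and 111 CPM in wild type normoxia. Asns had 111 and 112 CPM in TIN hypoxia, 76.8 and 76.3 CPM in TIN normoxia and 83.7 and 89.7 CPM in wild type normoxia. Ifit3 had 47.3 and 40.5 CPM in TIN hypoxia, 18.04 and 17.03 CPM in TIN normoxia and 542 and 655 CPM in wild type normoxia. Pdk1 had 313 and 314 CPM in TIN hypoxia, 37.1 and 42.3 CPM in TIN normoxia and 42.9 and 36.8 CPM in wild type normoxia. In normoxia, Cdkn1a was thus highest in GLAD, lowest in TIN, and in double just below wild type.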

How the data were processed

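The deposited table holds CPM (scaled counts) for 52636 genes in 14 libraries, computed by the authors, per the file headers. The submitters' processing notes name STAR, HTSeq and the builds GRCm38.p4 and mm10. Versions, annotation and the strand setting of the counting are not given in the sources used here, so reads of overlapping and antisense genes cannot be told apart. All value columns were mapped to a sample (0 unmapped). Values were rescaled by TMM factors, filtered at 1 CPM in at least 2 libraries and taken as log2(CPM + 0.5). They were fitted with limma 3.58.1 (limma-trend, R 4.3.3) as 7 group means over 14 libraries, with 7 residual degrees of freedom, and p-values were adjusted by Benjamini-Hochberg within each comparison over 16157 genes. The script was tested on simulated data.

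Gene coordinates are from GENCODE vM21 (GRCm38), and promoter windows from RefSeq (GRCm38.p6). The members and gene lists were chosen with earlier results of these data known, and no list was tested as a set. Genes named in the text have a mean of at least 5 CPM over the 8 libraries of double and GLAD and are the 10 largest called interactions in each direction, the 10 reversing genes in each direction with the largest smaller effect of both mutants, up to 4 called members of each list with the largest interaction, and 13 genes named always; some genes that the rule names are not reported here. Other genes were added after their values were seen: these are further members of the lists, the genes at or under 1 CPM that reversed by 2-fold, and those named as not called. The letters A and B were checked for pairing and do not pair libraries. Alternatives were other pseudocounts, filters and scalings, the 8 libraries alone, a replicate block, each library left out and, chosen after seeing the data, removal of each library's trend on transcript length and GC content. Precision is limited by 2 libraries a group.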

Additional observations from a re-analysis of the deposited data

Results flagged for a closer look

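The genes listed here changed in opposite directions under hypoxia in the mutants, with both hypoxia effects and their difference past the threshold in limma. They are reversing genes among those named by the rule given in the methods. With interactions (log2) higher in double, that is up in double and down in GLAD, they were Klhdc7a at 2.53, Perp at 2.40, Celf5 at 2.23, Sytl1 at 2.004, Crip2 at 1.93, Kctd12 at 1.70, Lrrc75b at 1.66, Ccng1 at 1.63, Dcxr at 1.60 and Cd80 at 1.57. Smaller positive values were found for Gclm (0.83), Cenpe (0.82) and Tpx2 (0.64).

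Down in double and up in GLAD were Enpp1 at -1.30, Aldh18a1 at -1.42, Chrnb1 at -1.43, Asns at -1.46, Slc6a9 at -1.60, Neurl3 at -1.64, Dhrs3 at -1.66, Tnfsf11 at -1.85, Flrt2 at -1.91, Sema5a at -1.91 and Lrrn4cl at -1.99. Celf5, an RNA-binding protein, had 29.98 and 23.05 CPM in double hypoxia, 8.41 and 7.65 CPM in double normoxia, 15.9 and 16.1 CPM in GLAD hypoxia and 23.5 and 24.7 CPM in GLAD normoxia. Slc6a9, a glycine transporter, had 23.5 and 20.9 CPM in double hypoxia, 51.1 and 44.6 CPM in double normoxia, 44.2 and 49.5 CPM in GLAD hypoxia and 32.1 and 33.4 CPM in GLAD normoxia. Kctd12 had 18.1 and 12.2 CPM in double hypoxia, 9.63 and 9.99 CPM in double normoxia, 33.6 and 33.5 CPM in GLAD hypoxia and 71.9 and 75.1 CPM in GLAD normoxia, so double stayed below GLAD at both oxygen levels although the directions differed. No group had enough libraries for a check of single outlying libraries.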

How the results depend on the processing

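No called gene of the 117 that the rule names changed direction under any of the 17 alternatives, in which other genes were not followed. The interaction of Il6, which was not called, changed sign with some libraries left out (lowest value -0.06). Of 117 named genes, 96 did not change between called and not called under any of them. These 96 include genes that were not called in the main fit, such as Terf1 and Il6. A further 20 lost the call under at least 1 alternative, mostly with a library left out. Irf7 gained it under 3 (adjusted p as low as 0.015, limma). Genes called numbered 1442 to 2285 with 1 library left out, those higher in double 667 to 1055 and those lower 634 to 1230, where fewer libraries enter the fit. Other alternatives raised the number called above the 2354 of the main fit. With the trend on length and GC content removed, 3339 genes were called, and 1715 were higher. Fitting only the 8 libraries of double and GLAD gave 3304 called genes, although fewer libraries entered that fit too. With no filter on low values, 820 were lower and 31 had a gap of at least 2-fold in both conditions with the same sign. With a filter of 5 CPM, 208 were at least 2-fold higher and 225 lower, 102 had a gap in hypoxia only, 8 in both with opposite signs and 125 in neither, and 1 gene reversed by 2-fold in both mutants. A pseudocount of 1 CPM gave 231 at least 2-fold lower, 27 with a gap of the same sign in both, 3 with opposite signs and 0 that reversed by 2-fold in both mutants. A pseudocount of 0.1 CPM gave 23 with opposite signs and 7 that reversed by 2-fold. The trend removal gave 5 of these, and leaving out libraries 2 to 6. Fitting only the 8 libraries gave 271 reversing genes, and leaving out libraries 120 to 185. Leaving out libraries gave 132 to 229 genes with a gap in hypoxia only and 129 to 202 in neither. The cause of these moves was not tested, except that fewer genes pass the 5 CPM filter. With the replicate block, 2407 genes were called, 2308 of them shared with the fit without it, and 182 reversed; the deviations of A and B correlated between groups at -0.10 to 0.16. The tests on counts could not be run, because whole reads were not recovered for nearly all genes. At 2 libraries a group, small differences are not detectable.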

Other observations

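Of 23 tested genes of cholesterol synthesis, 5 were called higher in double in the interaction and none lower, against 6.90% of all genes called higher, with a median of 0.19, and the median gap was -0.41 in hypoxia and -0.55 in normoxia. Sqle, which makes squalene epoxide, had 74.8 and 71.2 CPM in double hypoxia, 39.9 and 45.7 CPM in double normoxia, 67.00 and 64.7 CPM in GLAD hypoxia and 73.8 and 73.1 CPM in GLAD normoxia. Its interaction was 0.92 ± 0.11 (adjusted p = 2.6e-05, limma).

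Clock-related genes were called in both directions. Hlf, a transcription factor driven by the clock, had 28.3 and 27.1 CPM in double hypoxia, 29.4 and 30.5 CPM in double normoxia, 14.03 and 12.03 CPM in GLAD hypoxia and 4.38 and 3.83 CPM in GLAD normoxia, with an effect in double of -0.11 that was not called (adjusted p = 0.49, limma) and a rise of 1.55 in GLAD, an interaction of -1.67 ± 0.19. Bhlhe41, a clock repressor that is also a HIF target, had 66.5 and 65.1 CPM in double hypoxia, 8.07 and 8.89 CPM in double normoxia, 40.02 and 36.5 CPM in GLAD hypoxia and 11.1 and 12.8 CPM in GLAD normoxia, and rose more in double, with an interaction of 1.24 ± 0.18. In all, 3 of 18 clock genes were called higher in double and 2 lower, against 6.90% of all genes called higher and 7.67% lower.

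Secreted and surface proteins of inflammation gave 4 of 36 genes called higher in double and 6 lower, against the same shares of all genes, and 2 to 4 were called lower with 1 library left out. Icam1, an adhesion receptor for leukocytes, had 8.96 and 9.83 CPM in double hypoxia, 6.06 and 5.40 CPM in double normoxia, 13.00 and 13.4 CPM in GLAD hypoxia and 17.4 and 19.2 CPM in GLAD normoxia. Its interaction was 1.12 ± 0.26 (adjusted p = 0.0075, limma). Ccl2, a monocyte chemoattractant, had 224 and 295 CPM in double hypoxia, 454 and 438 CPM in double normoxia, 172 and 171 CPM in GLAD hypoxia and 198 and 187 CPM in GLAD normoxia, with the opposite sign, -0.63 ± 0.13 (adjusted p = 0.0037, limma). Lcn2, which encodes an iron-binding secreted protein, had 984 and 1082 CPM in double hypoxia, 757 and 784 CPM in double normoxia, 113 and 117 CPM in GLAD hypoxia and 52.8 and 63.02 CPM in GLAD normoxia. Its interaction was -0.57, and it gained 263 CPM in double and 57.0 CPM in GLAD. Il6 rose in both mutants, and its interaction of 0.13 ± 0.27 was not called (adjusted p = 0.81, limma).

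Of 16 class I antigen presentation genes, 4 were called lower in double and 1 higher, against 7.67% of all genes called lower and 6.90% higher. With 1 library left out 1 to 3 were called lower, and Tap2, Psmb10 and Erap1 lost the call in 7, 5 and 7 of these 8 fits. The most negative was Tapbp, the peptide-loading protein tapasin, with 484 and 446 CPM in double hypoxia, 868 and 894 CPM in double normoxia, 673 and 724 CPM in GLAD hypoxia and 797 and 866 CPM in GLAD normoxia and an interaction of -0.67 ± 0.10. The contractile and TGF-beta list gave 2 of 27 higher and 5 lower, or 2 to 6 lower with 1 library left out, against the same shares of all genes. At the lower end was Ltbp1, which holds latent TGF-beta in the matrix, with 443 and 436 CPM in double hypoxia, 742 and 802 CPM in double normoxia, 779.9 and 848 CPM in GLAD hypoxia and 828 and 875 CPM in GLAD normoxia and an interaction of -0.74 ± 0.11. The endothelial receptor gene Tek had 3.11 and 3.28 CPM in double hypoxia, 1.27 and 0.949 CPM in double normoxia, 11.6 and 11.5 CPM in GLAD hypoxia and 12.8 and 11.6 CPM in GLAD normoxia. Its interaction was 1.29 ± 0.28 (adjusted p = 0.0043, limma). Of the other endothelial markers Vwf (up to 3.26 CPM) and Kdr (up to 2.67 CPM) passed the filter, while Emcn and Cldn5 were listed at 0 in the 8 libraries. Of 12 tested genes of the mitochondrial genome, 1 was called, mt-Cytb, and 11 were not, against 14.6% called among all genes. It had 145 and 188 CPM in double hypoxia and 789 and 755 CPM in double normoxia. In GLAD it had 577 and 379 CPM in hypoxia and 1198 and 1312 CPM in normoxia. Its interaction of -0.80 ± 0.26 lost the call under 9 alternatives and was -0.48 without library A of GLAD hypoxia.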
